A study of Mus musculus with 13 samples.

Results

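Cytosolic ribosomal protein genes were followed through cells of the mouse medial amygdala, a forebrain nucleus that serves social behaviour. A gene was a member when its symbol read Rpl or Rps followed by a digit, or was Rpsa, Rplp0, Rplp1 or Rplp2, with the Rps6k kinases left out. This gave 110 of the 16961 genes in the deposited count table. The 110 comprise 77 core proteins (46 of the large and 31 of the small subunit), 8 paralogs or relatives such as Rpl22l1 and Rps27l, and 25 copies that carry a pseudogene-type symbol. Core members held 95.03% of the members' UMIs (unique molecular identifiers, each counting 1 captured mRNA), paralogs 2.712% and pseudogene copies 2.262%. The libraries came from naive C57BL/6J mice with no treatment beyond single housing for at least 1 day, under a reversed light cycle. There were 6 male and 7 female Drop-seq libraries, made from cells dissociated by Act-Seq. Mice of male libraries 3 and 5 and female library 3 were 8 weeks old and all others 9 weeks. The labels do not say how many animals each library pools. Each cell carried 1 of 8 classes from the authors: astrocyte (AS), endothelial (EN), microglia (MG), mural (MU), neuron (N), oligodendrocyte (OL), oligodendrocyte precursor (OPC) and newly formed oligodendrocyte (OPC-OL).

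A ribosome joins a small subunit, which reads the mRNA, to a large subunit, which forms the peptide bond, and each core protein is built into it once, apart from the acidic stalk proteins. Since the subunits need their proteins in fixed amounts, the genes are known for being transcribed and translated together. Their mRNAs are 5'TOP transcripts, which open with a C and a run of pyrimidines next to the cap, through which mTOR and Larp1 control their translation. In the oligodendrocyte lineage, precursors leave the cell cycle, pass through a short newly formed stage and then begin to make large amounts of myelin.

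The start regions of 6 members are printed because their share of the members' UMIs differed between classes in the results that follow. Each covers 25 bases on either side of the RefSeq start (GRCm38.p6), and capitals mark the longest run of a C followed by at least 6 pyrimidines, where there was one, and the first of runs of equal length (Rps27l holds another as long, nearer the start).
Rpl13 (large subunit, chr8:123102325-123102374, plus strand): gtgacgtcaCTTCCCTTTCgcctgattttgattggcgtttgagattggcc
Rps26 (small subunit, chr10:128626482-128626531, minus strand): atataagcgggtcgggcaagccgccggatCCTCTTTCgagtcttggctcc
Rpl38 (large subunit, chr11:114668555-114668604, plus strand): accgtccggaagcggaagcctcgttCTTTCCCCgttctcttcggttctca
Rps27l (paralog of Rps27, chr9:66946061-66946110, plus strand): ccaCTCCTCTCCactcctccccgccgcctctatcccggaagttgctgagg
Rpl22l1 (paralog of Rpl22, chr3:28805483-28805532, plus strand): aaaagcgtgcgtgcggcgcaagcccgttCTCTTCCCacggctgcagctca
Rpl22 (large subunit, chr4:152325701-152325750, plus strand): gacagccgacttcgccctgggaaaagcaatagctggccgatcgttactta
Such a run of at least 7 letters, searched on the transcribed strand, lay in the window of 30 of the 57 core members with a RefSeq entry (52.632%), against 22.657% of all 27025 genes. Of the 6 printed windows 5 hold one, and that of Rpl22 does not. The run is a description of letters near an annotated start, and a window without one says nothing about the mRNA's true first base.

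After cells with fewer than 500 genes and 281 called doublets were removed, 24527 of 43388 cells remained, 1149 to 2908 per library, with 3718151 to 7874074 UMIs per library and a median of 1745.5 to 2434 UMIs per cell. Median depth differed by class, from 1544 UMIs in EN to 3182 in OL and 4061 in OPC-OL. OPC-OL was the smallest class, with 463 cells and 12 to 56 in a library. In all 8 marker lists every marker was highest in the class it should mark. Of 24508 distinct kept barcodes, 19 occurred in more than 1 library. Members ranged from 25 UMIs to 57431 (Rplp1). A test on sums of UMIs per library and class covered 12200 genes, among them 88 members (73 core, 5 paralogs, 10 pseudogene copies), and 22 members were too low to be tested.

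The share of a cell class's UMIs that came from the members differed widely between classes. Microglia, the brain's resident macrophages, had the highest share, 3.58% ± 0.282 (SD, n = 13 libraries; lowest 2.91, median 3.69, highest 3.90). Endothelial cells, which line the vessels, followed with 3.21% ± 0.319 (2.76, 3.19, 3.83), and mural cells, which wrap them, with 2.19% ± 0.1504 (1.98, 2.15, 2.47). Astrocytes had the lowest share, 0.841% ± 0.0969 (0.706, 0.828, 1.04). AS was below each of the other 7 classes in 13 of 13 libraries, at 0.235 times the MG share. MG was above EN in 12 of 13 libraries, and the ranges of these neighbours overlapped. In between stood OPC-OL with 1.85% ± 0.226 (1.52, 1.84, 2.23), N with 1.33% ± 0.318 (0.911, 1.25, 2.02), OPC with 1.23% ± 0.0912 (1.04, 1.23, 1.38) and OL with 1.23% ± 0.0721 (1.06, 1.24, 1.36). N exceeded OL in 7 of 13 libraries and OL exceeded OPC in 6 of 13, so these 3 classes could not be put in order. A share has no test here, since it sums genes chosen as a group, and fewer mRNAs of other genes in a cell would raise it as well.

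**Figure D1:**
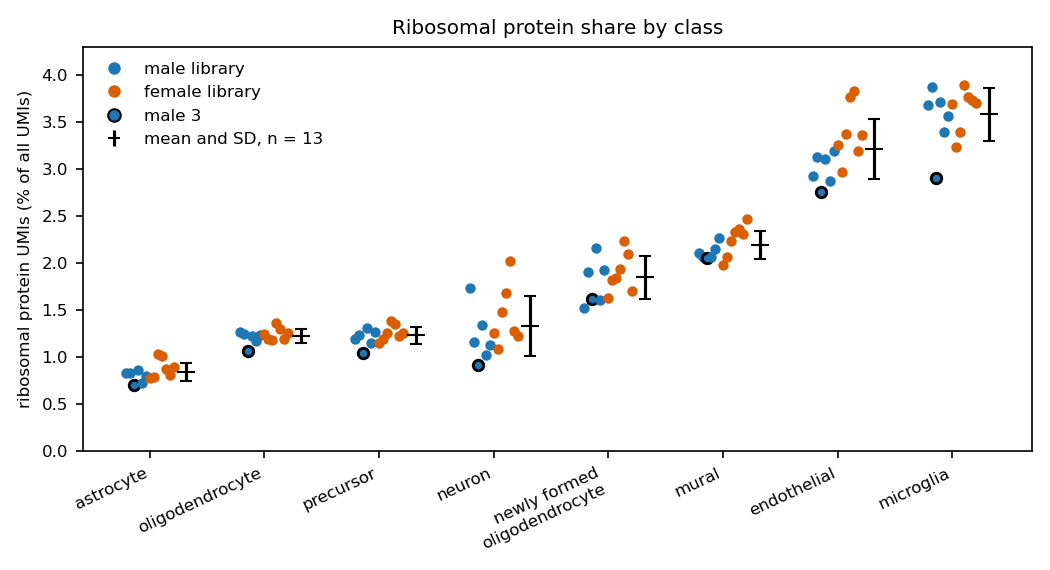
Share of UMIs from the 110 members (percent, vertical axis) in each of the 8 classes, 1 point per library with bars for mean and SD. Astrocytes lie lowest at 0.841% and microglia highest at 3.58%, and neurons range from 0.911% to 2.02%.

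The order of the outer classes was the same in cells of like depth. Among cells with 1000 to 2000 UMIs the share was 3.38% in MG, 3.21% in EN, 1.81% in MU, 1.52% ± 0.777 in N, 1.11% in OL, 1.05% in OPC and 0.722% in AS. OPC-OL has few such cells, and its share there, 2.38% ± 2.397, has an SD above its mean. Red blood cell genes took 0 to 6.36% of EN UMIs depending on the library, and leaving them out of the total gave 3.25% ± 0.333.

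In neurons the share depended on a minority of the cells. The marker lists were summed in every cell, and 3115 of the 3615 neurons (86.17%) had more UMIs from neuron markers than from any other list, against at least 93.19% of cells in each other class. In these 3115 cells the member share was 1.01% of pooled UMIs. In the remaining 500 it was 3.89%, at a median of 1280 UMIs a cell against 1930. The share of cells led by neuron markers ran from 66.96% to 97.48% over the libraries. Restricted to them, the neuron share was 1.03% ± 0.140, below the OL and OPC means, and the SD between libraries was 0.140 in place of 0.318. Astrocyte markers summed to 387 CPM in the neurons of male 3, which had the lowest neuron share, and to 4614 CPM in those of female 5, which had the highest. The libraries between did not keep this order: female 4, with a share of 1.68%, had 2163 CPM, and male 5, with 1.02%, had 2269. The median single neuron gave 0.767% (mean of 13 library medians), while the 95th percentile was 4.63%. MG held 54 cells that were not led by microglia markers, with a share of 9.36%. What these cells are was not tested. The neuron results below include the 500 neurons, and only some are also given without them.

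Single members followed the shares, apart from a few that recur in later results. In edgeR's quasi-likelihood test of each class against the mean of the other 7, at an adjusted p under 0.05, 80 of 88 members were higher in MG and 1, Rpl22l1, was lower (all genes tested: 37.1% higher, 38.6% lower). The members' median log2 difference was 1.15, that of all genes -0.10. In EN, 77 were higher and 2 lower (28.7% and 39.5% of all genes), with a median of 0.90 against -0.23. AS showed the opposite, with 82 lower and 2 higher (33.9% and 36.7%) and a median of -1.03 against -0.04. The 2 higher ones were Rpl23a and Rps19bp1, the latter named for binding Rps19 and no part of the mature ribosome.

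With TMM factors precursors came next to astrocytes by median. On total UMIs OL did, with a median of -0.61 against -0.49 in OPC. On that scale the median of all genes was -0.49 in OL and 0.43 in OPC, so the OL value lay near the shift of all genes. In OPC 75 members were lower and 5 higher (25.4% and 44.1% of all genes; median -0.80). The 5 were Rpl13, its copy Rpl13-ps3, Rpl5, Rpl10a and Rpl7l1. In N 57 were lower and 11 higher (35.1% and 41.9%; median -0.31), the 11 including Rpl22l1, Rpl24 and Rpl27a. In cells led by their own markers the N median was -0.52, against 0.08 for all genes. MU had 37 higher and 0 lower (23.1% and 31.8%; median 0.18). OL had 14 higher and 43 lower, which is 15.9% and 48.9% of the members (37.7% and 35.4% of all genes). OPC-OL had 21 higher and 24 lower (29.2% and 29.9%), near the background. Scaling matters for these last counts: by total UMIs with no TMM factor, OL had 1 higher and 82 lower, and OPC-OL 41 higher and 9 lower. Of all 12200 genes, 9452 were then called in OL and 7432 in OPC-OL, in either direction. Their medians were -0.49 and 0.15, so these counts include a shift of all genes. MG had the highest mean level for 65 of 88 members (19.1% of all genes) and AS the lowest for 58 (8.07%).

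Across the oligodendrocyte lineage the members rose into the newly formed stage. At the next step their median fell, by an amount that depended on the scaling. The share rose from 1.23% in OPC to 1.85% in OPC-OL and was back at 1.23% in OL, and OPC-OL lay above both in 13 of 13 libraries, the OPC share being 0.672 ± 0.0573 times that of OPC-OL. From OPC to OPC-OL, 69 of 88 members rose and 3 fell by edgeR's test (20.0% and 34.6% of all genes), with a median log2 difference of 0.68 against -0.21 for all genes. Both subunits took part: 26 of 28 small-subunit and 33 of 45 large-subunit core members rose. Of core members that share their 3' end with a near-identical copy elsewhere in the genome 34 of 42 rose, and of those that do not 25 of 31, with medians of 0.69 in both. The same contrast had a median of 0.60 with total UMIs and no TMM factor, and of 0.65 by DESeq2.

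Rplp1, one of the paired acidic proteins of the stalk that recruits elongation factors, changed most among the members that rose. In raw CPM (UMIs scaled to all UMIs of the class and library, with no TMM factor) it had 408 in OPC (lowest 258, highest 460), 1028 in OPC-OL (741 to 1339) and 482 in OL (346 to 533). OPC-OL was above both others in 13 of 13 libraries, and its range overlapped neither. The log2 difference between OPC-OL and OPC was 1.42 (SE 0.07, edgeR adjusted p = 4.54e-41). Rps3, at the mRNA entry of the small subunit, went from 338 to 726 raw CPM (log2 1.19, SE 0.07, adjusted p = 3.85e-37). Rpsa, the small-subunit protein that is also known as the laminin receptor, went from 56.2 to 114 (1.10, SE 0.12, 5.91e-16), and Rps26, at the mRNA exit, from 292 to 561 (1.04, SE 0.08, 2.06e-27). Rps28 went from 45.8 to 102.5 raw CPM (1.26, SE 0.14). Each of these 4 was higher in OPC-OL in 13 of 13 libraries. Other members with large increases were Rps26-ps1 (0.98), Rps2 (0.95), Rps25 (0.93), Rpl3 (0.88) and Rplp0 (0.87).

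**Figure D2:**
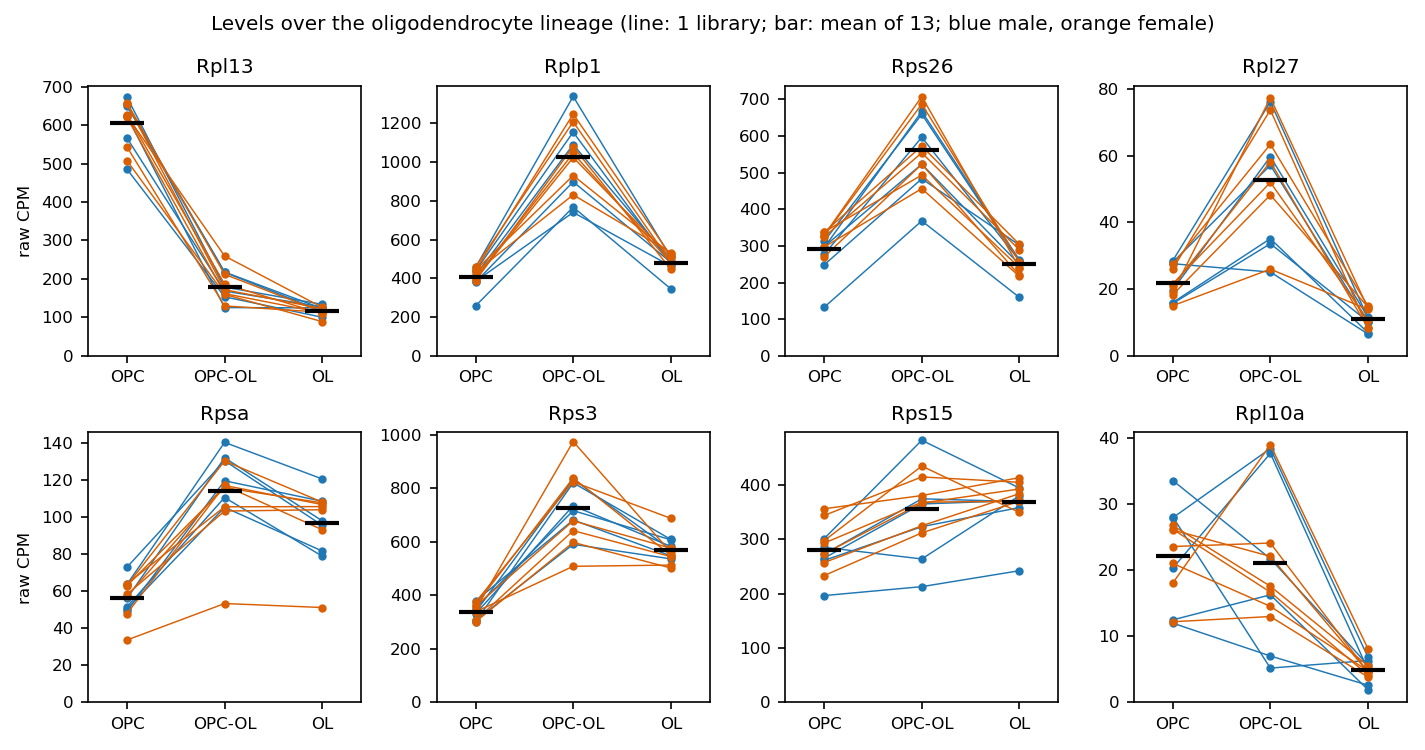
Levels of 8 members over OPC, OPC-OL and OL (horizontal axis) in raw CPM (vertical axis), with 1 line per library and a bar for the mean. Rplp1 peaks in OPC-OL in 13 of 13 libraries, while Rpl13 has 607, 180 and 116 raw CPM, of which only the first step was called with TMM.

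Rpl13 went the other way. This large-subunit protein had 607 raw CPM in OPC (485 to 672), 180 in OPC-OL (126 to 260) and 116 in OL (89.2 to 134), lower at each step in 13 of 13 libraries on this scale. With TMM the second step was not called: the mean was 158.4 CPM in OPC-OL and 152.5 in OL (log2 -0.08, edgeR adjusted p = 0.443), and OL was higher in 6 of 13 libraries. OPC did not overlap with either later class. The OPC-OL level was 0.297 times that in OPC (log2 -1.65, SE 0.08, edgeR adjusted p = 2.05e-45). Rpl13-ps3 also fell (-1.32, SE 0.17), and its last 158 bases are identical to those of Rpl13. Its ratio to Rpl13 was alike in OPC (0.146) and MG (0.167), so the 2 entries cannot be told apart in these data. The third member that fell was Rps4y2, a pseudogene copy that GENCODE calls Rps4l and that overlaps Tmtc1 (-0.68, SE 0.21, adjusted p = 0.00343). Rpl13 itself lies within the readthrough locus Gm20388.

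From OPC-OL to OL the members' median was negative with TMM, on total UMIs and by DESeq2. Its size and the direction of some members depended on the scaling. With TMM factors, which were 0.740 to 0.791 in OL and 1.07 to 1.25 in OPC-OL, 28 members fell and 16 rose (26.9% and 29.5% of all genes). The median was -0.12, against 0.06 for all genes. Set on total UMIs, 75 fell and 0 rose, at a median of -0.69 when that of all genes was -0.49. On that scale 7705 of 12200 genes were called in either direction. By DESeq2 7 rose and the median was -0.28, against -0.19 for all genes (7211 of 12200 called in either direction). Among the members that fell under every one of these scalings by a large amount were Rps28 (log2 -0.89, SE 0.13), Rps18 (-0.69), Rps26 (-0.60) and Rplp1 (-0.52). In raw CPM, Rps26 was 561 in OPC-OL and 251 in OL, lower in 13 of 13 libraries. Rps15 had the largest increase under TMM (0.63, SE 0.07, adjusted p = 3.86e-14), but on total UMIs it was 355 and 369 raw CPM and 0.05 on the log2 scale. The increases in Rps21, Rplp0 and Rpsa with TMM were lost on total UMIs, where OL had 0.94, 0.90 and 0.85 times the OPC-OL level. On that scale OL was still higher in 5, 5 and 2 of 13 libraries.

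Between the ends of the lineage, OL against OPC, 65 members were higher and 7 lower with TMM (32.5% and 41.7% of all genes, median 0.50). On total UMIs 21 were higher and 40 lower (median -0.16 against -0.77 for all genes, 10198 of 12200 called in either direction). With TMM, Rpsa (1.43, SE 0.09) and Rps3 (1.4, SE 0.06) led the increases, followed by Rplp0 (1.28) and Rps21 (1.25). On total UMIs too, Rpsa, Rps3, Rplp0 and Rps21 were higher in OL in 13 of 13 libraries, with 1.72, 1.68, 1.54 and 1.52 times the OPC level. Rpl13 was lower (-1.73), as was Rpl7l1 (-0.43), a paralog of Rpl7 that acts in ribosome assembly.

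Sorted by both steps with TMM, 24 members peaked in OPC-OL, that is they rose and then fell (27.3%, against 8.34% of all genes). A further 32 rose and then showed no call (5.14% of all genes), and 13 rose at both steps (6.57%). Rpl5, Rpl10a, Rpl12 and Rpl7l1 showed no call and then fell (8.48%). Some low members, chosen after their values were seen, had large swings. Rpl27 had 21.9, 52.7 and 10.9 raw CPM in OPC, OPC-OL and OL, higher in OPC-OL than in OPC in 12 of 13 libraries and than in OL in 13 of 13. Rpl10a had 22.2, 21.0 and 4.92, and Rpl5, which carries 5S rRNA into the large subunit, 48.8, 55.6 and 16.5.

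To ask which members left the pattern that the group shares, each was set against the members' own total in the same cells, and called at an edgeR adjusted p under 0.05 with a log2 difference of at least 0.5. The number called per class was 13 in AS, 18 in EN, 24 in MG, 9 in MU, 19 in N, 8 in OL, 17 in OPC and 15 in OPC-OL, of 88. Because this scale follows the members' total, the same rule calls 74.7% of all genes higher in AS and 74.5% lower in MG, so the background shows only how the share moves. The called members were 13 higher and 0 lower in AS (all genes 74.7% and 5.7%), 3 and 15 in EN (11.5% and 70.5%), 2 and 22 in MG (10.2% and 74.5%), and 5 and 4 in MU (16.9% and 36.4%). They were 11 and 8 in N (45.0% and 16.3%), 3 and 5 in OL (30.5% and 25.6%), 15 and 2 in OPC (74.9% and 5.17%), and 11 and 4 in OPC-OL (25.2% and 22.9%).

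**Figure D3:**
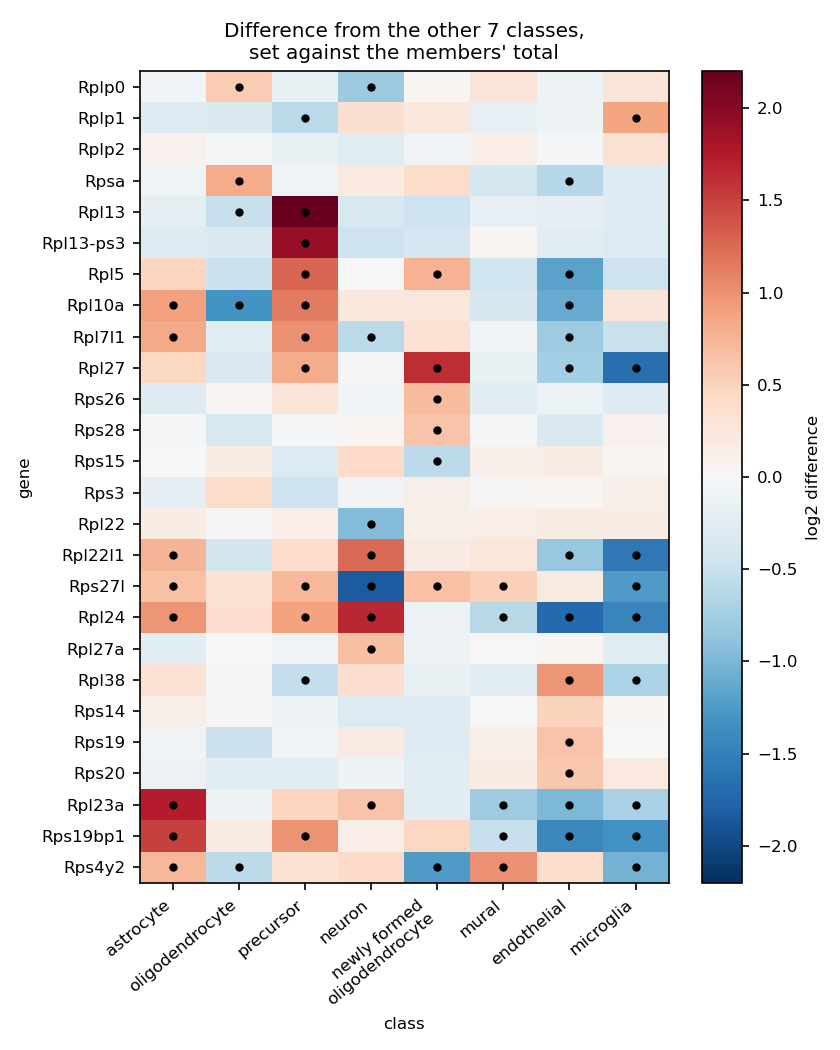
Log2 difference of each listed member in a class against the mean of the other 7 classes, on the scale of the members' total (colour scale; rows are members, columns classes; a black dot marks a called difference). Rpl13 in OPC stands out at 2.2, and Rps27l in N is lowest of its row at -1.83.

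Rpl13 in precursors was the largest of these departures. It made up 4.94% ± 0.563 of member UMIs in OPC (lowest 3.93, median 4.94, highest 6.28) and on average 1.08% in the other 7 classes, where no library exceeded 1.62%. The log2 difference was 2.2 (SE 0.04, edgeR adjusted p = 6.04e-97), and OPC was the highest of the 8 classes in 13 of 13 libraries. Rpl13-ps3 (1.92) followed it. Members with smaller departures upwards in OPC included Rpl5 (1.28), Rpl10a (1.138), Rps19bp1 (0.997) and Rpl7l1 (1.002). Rplp1 was at its lowest in OPC in 13 of 13 libraries, with 3.31% ± 0.336 of member UMIs (-0.60, SE 0.05).

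In microglia Rplp1 stood out furthest upwards of the 88 members. It held 8.08% ± 0.510 of member UMIs (7.05, 8.17, 8.89) against a mean of 4.49% in the other classes, highest in 13 of 13 libraries and with no overlap, although the nearest OPC-OL library reached 7.02% (log2 0.87, SE 0.04, adjusted p = 3.22e-43). Of the other stalk proteins neither was called: Rplp0, the base of the stalk, was 2.21% in MG against 1.90% elsewhere, and Rplp2, the partner of Rplp1, was 2.42% against 1.95% (log2 0.31, under the 0.5 required). Lower in MG were Rpl27 (-1.65), Rpl22l1 (-1.57), Rpl24 (-1.44), Rps19bp1 (-1.33) and Rps27l (-1.25). Rpl24 lies within the locus Gm28037.

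Neurons differed from the other classes in 2 paralog families. Rpl22, an RNA-binding protein of the large subunit, was 0.870% ± 0.0869 of member UMIs in N (0.697, 0.853, 0.982) and 1.69% on average elsewhere, lowest in 13 of 13 libraries and below every other library and class (log2 -0.96, SE 0.06, adjusted p = 1.91e-34). Its paralog Rpl22l1 was 1.28% ± 0.172 in N (0.913, 1.32, 1.47) and 0.592% elsewhere, highest in 12 of 13 libraries (1.25, SE 0.06, 1.90e-44). Rpl22 protein is known to repress Rpl22l1, so the balance of the pair is often followed. The ratio of Rpl22l1 to Rpl22 UMIs was 1.49 ± 0.270 in N (lowest 0.945, highest 2.08), 0.551 in AS, 0.449 in OPC, 0.418 in MU, 0.410 in OPC-OL, 0.294 in OL, 0.214 in EN and 0.135 ± 0.0229 in MG. No library of another class came above 0.747. How well each mRNA was captured is not known, so the ratio orders the classes and does not say which gene makes more mRNA. The ratio itself was not tested. Rpl22l1 overlaps the antisense gene Gm33051.

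**Figure D4:**
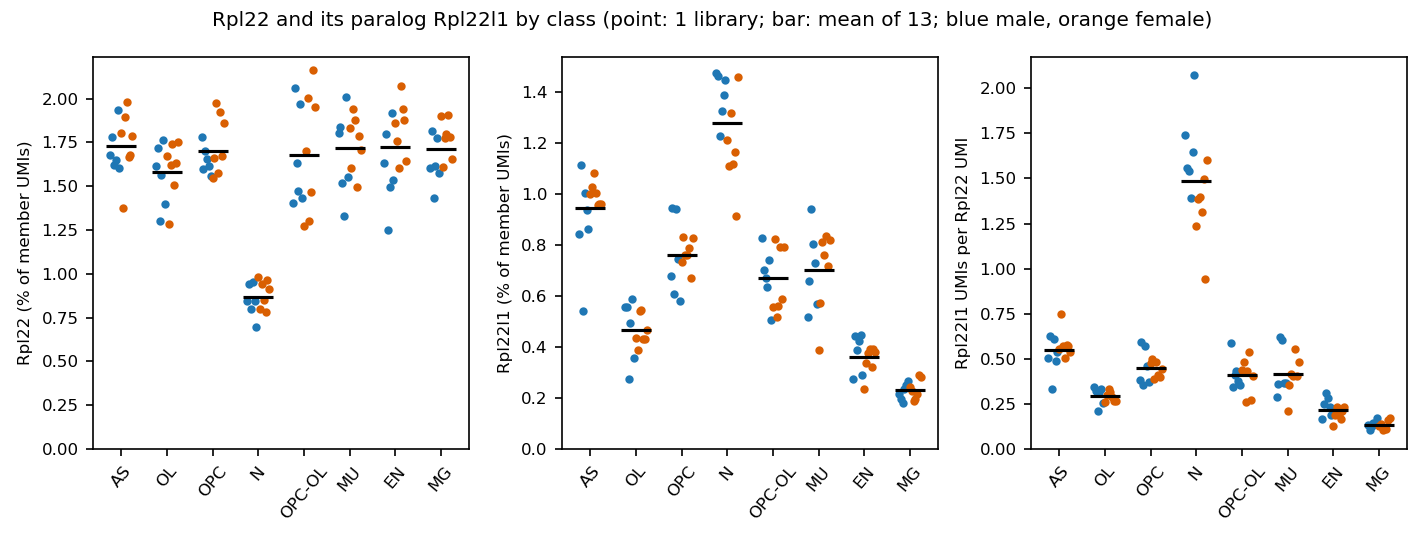
Rpl22l1 and Rpl22 in each library and class, as percent of member UMIs and as the ratio of their UMIs, 1 point per library. Neurons lie apart, with a ratio of 1.49 against 0.551 or less in the means of the other classes.

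Rps27l, a paralog of Rps27 that is known as a target of p53, was 0.231% ± 0.0589 of member UMIs in N (0.128, 0.218, 0.315) and 0.881% elsewhere, lowest in 13 of 13 libraries (log2 -1.83, SE 0.09, adjusted p = 4.40e-45). Rplp0 was also lower in neurons, with 1.16% ± 0.149 against 2.05% (-0.80, lowest in 12 of 13 libraries), as was Rps9 (-0.67). Rpl24 (1.66, SE 0.10) and Rpl27a (0.66) were higher, as was Rpl15 (1.13), a low member (15.7 CPM in OPC) that overlaps Nkiras1. In neurons led by their own markers the following differences were as large or larger: 2.09 for Rpl24, 1.54 for Rpl22l1, 0.84 for Rpl27a, -1.88 for Rps27l, -1.05 for Rpl22 and -0.81 for Rplp0. Rps9 and Rpl15 are not given for these cells.

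Oligodendrocytes stood out by Rpsa and Rplp0. Rpsa was 0.792% ± 0.165 of member UMIs in OL (0.429, 0.778, 1.13) against 0.456% (0.82, SE 0.07, adjusted p = 9.66e-25), highest in 12 of 13 libraries. Rplp0 was 2.64% ± 0.304 (2.37, 2.504, 3.55) against 1.83% (0.55, SE 0.05, 1.02e-20), highest in 13 of 13. Rpl10a (-1.32) and Rpl13 (-0.51) were lower. In OPC-OL, Rps26 was 3.03% ± 0.391 (2.27, 3.05, 3.72) against 1.90%, highest in 13 of 13 libraries (0.69, SE 0.06, 5.33e-22). Rps15, near the decoding centre, was 1.92% ± 0.289 (1.31, 1.94, 2.36) against 2.89%, lowest in 13 of 13 (-0.58, SE 0.06, 1.11e-16). Rps28 (0.63) was higher as well, and so was the low member Rpl27, with 0.282% against 0.101% (1.62, SE 0.17), highest in 12 of 13.

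Endothelial cells had more Rpl38, a small protein at the surface of the large subunit that is known from skeletal patterning defects in mice. Its mean was 0.613% ± 0.215 of member UMIs (0.312, 0.565, 1.137) against 0.317% elsewhere, and EN was highest in 10 of 13 libraries (log2 0.97, SE 0.09, adjusted p = 1.15e-20). Rps19, the gene most often mutated in Diamond-Blackfan anaemia, was 2.51% ± 0.264 in EN against 1.64% (0.62, SE 0.05), and Rps20 2.35% ± 0.208 against 1.58% (0.59, SE 0.05), both highest in 13 of 13. Rps14 in EN, 4.81% to 6.22%, lay above every library of the other classes, the highest of which was 4.56%, without reaching the log2 difference of 0.5. Rpl24 was lower (-1.71, SE 0.17). Astrocytes had more Rps19bp1 (1.499, SE 0.09), Rpl24 (0.97) and the low member Rpl23a (1.73), which overlaps Tlcd1. In mural cells Rps4y2 (1.002, SE 0.14) and Rps27l (0.52, SE 0.09) were higher.

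The remaining paralogs gave less. As UMIs, with the capture of each mRNA not known, Rpl36al had 4.45 times the sum of its paralog Rpl36a in N and 15.8 times in MG. The other classes lay between them. Rpl7l1 had 0.946 times the UMIs of Rpl7 in OPC, 0.404 times in OL and 0.296 times in EN. Rps27 itself had 10 to 49 UMIs in a class, too few to be tested, and it has 6 near-identical copies. Rpl39l, Rpl3l and Rpl10l, which are known from testis or muscle, were also below the filter.

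Genes that work with the ribosome moved in part with it. Fau and Gnb2l1 (Rack1), ribosomal proteins under other symbols, were both higher in OPC-OL than in OPC (log2 0.56 and 0.51), higher in MG and lower in AS. Of 20 known 5'TOP transcripts outside the members, some of them also in the other lists, 17 rose and 0 fell from OPC to OPC-OL (20.0% and 34.6% of all genes), 16 were higher and 1 lower in MG (37.1% and 38.6%), and 0 were higher and 19 lower in AS (36.7% and 33.9%). Among 10 elongation factors 6 rose and 2 fell from OPC to OPC-OL, against the same 20.0% and 34.6%. Eef1a1, which brings tRNA to the ribosome, rose by 1.001 (SE 0.06) and Eef2, which moves it on, by 1.01 (SE 0.07), whereas Eef1a2, the form of neurons and muscle, fell (-2.34, SE 0.20). Of 36 initiation factors 19 rose and 4 fell at this step.

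Among 29 biogenesis genes tested 13 rose and 2 fell from OPC to OPC-OL (20.0% and 34.6% of all genes). From OPC-OL to OL, with TMM, 6 rose and 16 fell (29.5% and 26.9%), at a median of -0.48. These counts on total UMIs were not computed, and the size of the members' own fall at this step depended on the scaling. Nop58, a core protein of the particles that methylate rRNA, went from 148 CPM in OPC-OL to 66.3 in OL (-1.15, SE 0.12), and Npm1, which chaperones the large subunit, from 298 to 197 (-0.60, SE 0.09). Of 18 regulators 1 rose and 6 fell from OPC to OPC-OL, the falls near the 34.6% of all genes. Of 73 proteins of the mitochondrial ribosome 6 were higher and 35 lower in MG (37.1% and 38.6% of all genes). From OPC to OPC-OL 14 of them rose, near the 20.0% of all genes, and 9 fell (34.6%).

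The series sets male against female mice, and 0 members were called between the sexes in any class by edgeR or DESeq2 with adjustment over all genes. Calls were few among all genes too, from 1.28% in EN, 1.16% in AS and 0.349% in MG to 0.261% in OL, 0.131% in OPC, 0.123% in MU, 0.0889% in OPC-OL and 0.0623% in N. At an unadjusted p under 0.05, edgeR had 18 of 73 tested members in EN (11.2% of all genes), 15 of 83 in AS (10.4%), 10 of 85 in N (6.24%), 5 of 82 in OL (7.79%), 3 of 85 in MG (7.29%), 3 of 86 in OPC (6.08%), 1 of 56 in MU (6.53%) and 1 of 64 in OPC-OL (4.0%). All 18 in EN (4.78% of all genes were lower in males at this threshold), all 15 in AS (5.45%) and 9 of 10 in N (2.7%) were lower in males. Single libraries moved these counts. In N there were 31 without male 1, 21 without female 2, 6 without male 2, male 5 or male 6, 5 without female 4, 4 without male 3 and 2 without female 5. In EN there were 11 without male 3, 10 without female 4 and 9 without female 5, and in AS 24 without female 6. Within the 9-week libraries there were 9 in EN, 4 in AS and 4 in N. The share of all genes at the unadjusted threshold was not computed for these refits, so their counts cannot be set against a background.

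The member share had a lower mean in males in 8 of 8 classes, at 0.851 to 0.971 times the female mean. In EN it was 3.001% ± 0.171 in males (2.76, 3.02, 3.20; n = 6) and 3.39% ± 0.309 in females (2.97, 3.37, 3.83; n = 7), and the ranges overlapped. In N it was 1.22% ± 0.294 (0.911, 1.15, 1.74) and 1.43% ± 0.325 (1.08, 1.28, 2.02). The 8 classes come from the same 13 libraries and are not 8 observations of sex. Without male 3 the ratio was 0.894 to 1.005, lower in males in 7 of 8 classes, and within the 9-week libraries (4 male, 6 female) 0.910 to 1.011, again in 7 of 8. The 8-week libraries (2 male, 1 female) gave 0.654 to 0.942. In neurons led by their own markers 1 member passed the unadjusted threshold, with the share of all genes not computed. The median log2 difference there was -0.07 in place of -0.25.

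Some members marked a library more than a sex. Male 3 had the lowest member share in 6 of 8 classes. In 7 or 8 classes, 19 of 88 members were lowest in male 3, among them Rpl22, Rpl38, Rpl39, Rpl41, Rplp2, Rps15, Rps19 and Rps26, and Rpsa was lowest in female 2, so that 20 members were lowest in 1 library this often, against 0.32% of all genes. Of the 19, 18 are core members, with a median annotated transcript length of 594.5 bases against 769.5 in the other 55. A gene's length is the median over its annotated protein-coding transcripts, and the length of the mRNA in these cells was not measured. Core members under 600 bases (23) had a median log2 level of -0.80 in male 3 against the median of the other 12 libraries, those of 600 to 1000 bases (36) -0.35, and those of 1000 to 2000 bases (12) 0.00. The 2 core members above 2000 bases, Rpl22 and Rps20, had -0.49, against this order. Over the 73 core members length and the male 3 level had a Spearman rho of 0.601 and, with log2 length, a Pearson r of 0.505. In the other 12 libraries rho ran from -0.349 to 0.165. These are descriptions across genes of 1 library. Genes outside the group showed less of it, with a median of -0.26 under 600 bases (432 genes) and -0.10 at 1000 to 2000, and a rho of -0.00164. The 8-week libraries male 5 and female 3 had medians of -0.19 and 0.01 in the shortest core members. The part of fragment length or library preparation in this was not tested.

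In female 2, Rpsa was the lowest of the 13 libraries in 8 of 8 classes, at 0.295 to 0.612 times the median of the other 12. The smallest ratios, 0.295 in MU and 0.318 in EN, rest on 2 and 6 UMIs in female 2. In OL it had 51.1 raw CPM there, against 78.8 to 120 in the other libraries. Rpl38 was highest in female 4 in 7 of 8 classes, at 1.55 to 3.46 times the others' median, and Rps4x was highest in female 5 in 8 of 8. Only 0.107% of all genes were highest in 1 library in 7 or more classes. In EN, Rpl38 had 428 raw CPM in female 4 and 86.1 to 276 elsewhere. Whether these follow from the mice or from the preparation cannot be told apart, since each library is 1 preparation.

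**Figure D5:**
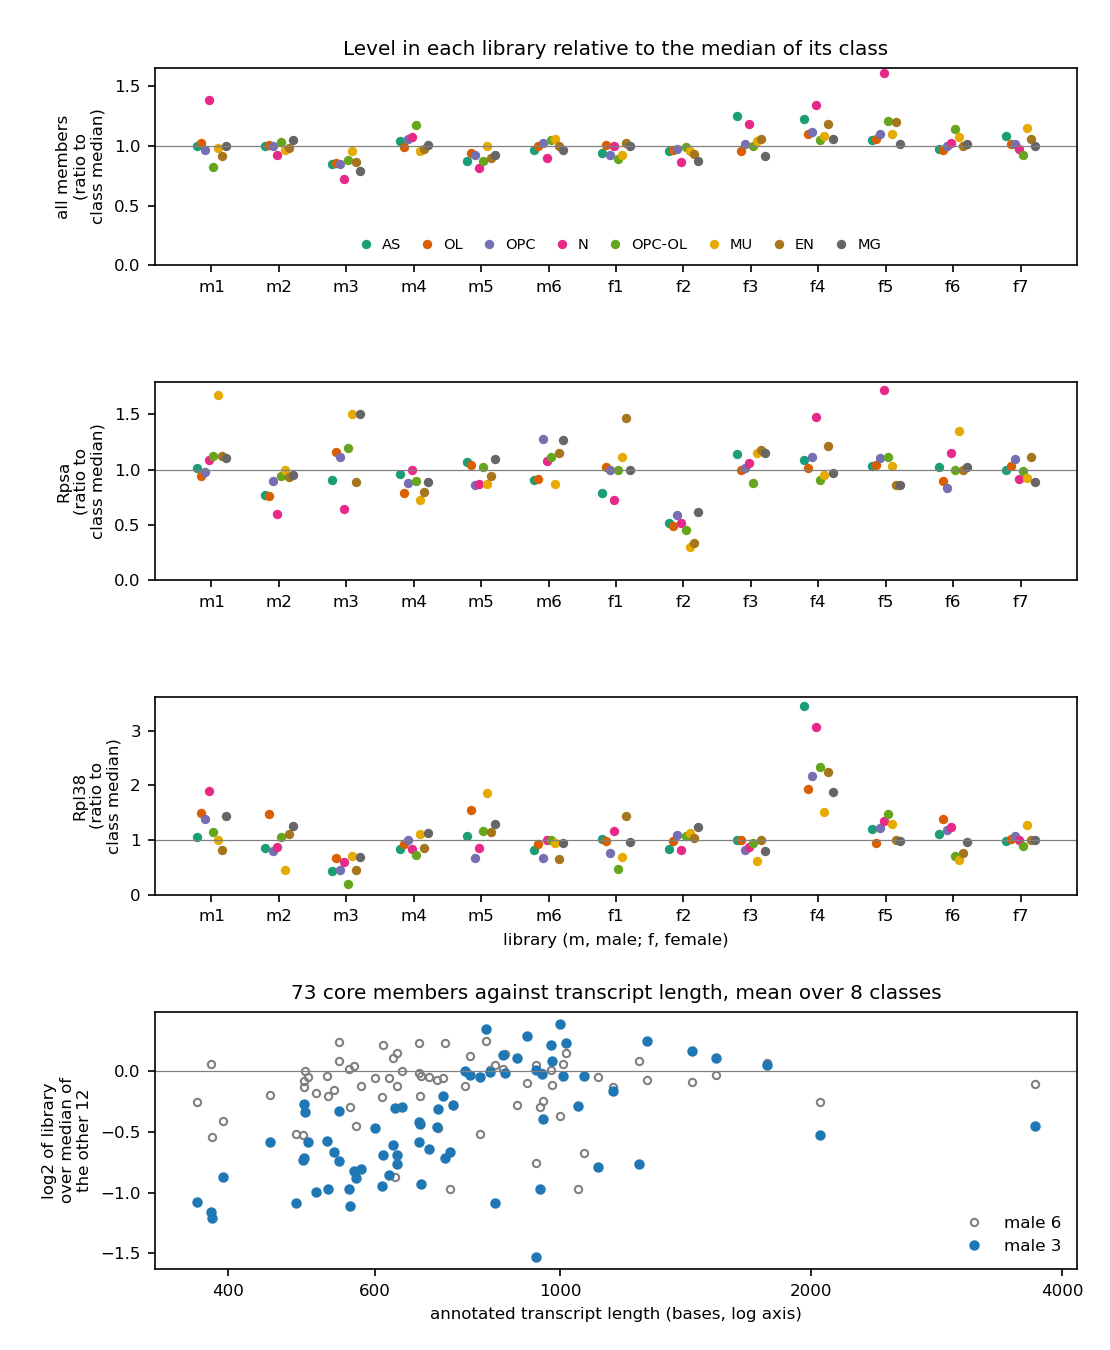
Upper 3 panels: level in each library divided by the median of its class, for all members, Rpsa and Rpl38 (colours are classes). Lowest panel: log2 level of 73 core members in male 3 and, for comparison, male 6, against annotated transcript length in bases on a log axis. Rpsa is low in female 2 and Rpl38 high in female 4 across classes, and the short members are low in male 3.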

How the data were processed

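The authors deposited raw UMI counts of 16961 genes in 43388 cells, with library and class in the cell name. Per the submitters' processing notes, bcl2fastq 2.17.1.14 and STAR 2.5.0a were used with mm10. UMI collapsing and strand of counting are not given in the sources used here. Antisense and overlapping genes, and near-identical copies, cannot be told apart. Cells with at least 500 genes were kept and doublets removed with Scrublet (scanpy 1.11.5; 1.1327% called). Counts were summed per library and class (sums of at least 10 cells) and tested with edgeR 4.0.16 in R 4.3.3 (TMM, filterByExpr, robust quasi-likelihood, library as block), with Benjamini-Hochberg adjustment over all genes. Sex was tested within each class. DESeq2 1.42.0 was an alternative. The fits were checked on simulated counts of the lineage classes with planted changes. These held no library effects and no other class differences, so the block and the scaling of OL were not checked. The library is the replicate, and the labels do not state the animals in each. With library as block, p-values of class and lineage measure how class differences vary from library to library. Those of sex, fitted without a block, measure the spread between libraries. Raw CPM are scaled to all UMIs without TMM, CPM with it. Lengths and positions came from GENCODE, and near copies from BLAST 2.17.0 over the last 200 bases (at least 95% identity over 100). All 110 members were located. A cell was led by its own markers when that list had more UMIs than any other, the oligodendrocyte lineage taken as 1. Named members were up to 10 per lineage step and direction and 3 per class and direction by size with a mean of at least 50 CPM, with paralogs, stalk genes and Rpsa. Members named with lower means (Rpl27, Rpl10a, Rpl5, Rpl23a, Rpl15), Rps14, Rps9, Rps4y2 and those listed by library were chosen after values were seen. A few members are not reported here by name. Members and lists were chosen with earlier results of these data known.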

Additional observations from a re-analysis of the deposited data

Results flagged for a closer look

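Of 92 groups of single members, class and sex, 6 held a library far from the others by Dixon's gap ratio, where chance gives about 1 in 20. Rpl38 in female 4 had 433.3 CPM (TMM-scaled) in EN, where the next female library had 238.2, and 52.68 CPM in OPC, where the next had 29.84. Rpsa in female 2 had 67.7 CPM in OL and the next lowest female library 123.2. Male 3 had 439.4 CPM of Rps19 in EN (next 669.3) and 212.6 CPM of Rplp1 in OPC (next 319.1). Rpl13 in male 2 had 127.1 CPM in OL, where the next lowest male library had 156.5.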

How the results depend on the processing

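The main limits are the scaling of OL, the small OPC-OL class (12 to 56 cells a library) and low counts of members such as Rpl27. With total UMIs and no TMM factor the OL minus OPC-OL differences of Rps21 (-0.088), Rps10-ps1 (-0.10), Rps10 (-0.14), Rpl24 (-0.15), Rplp0 (-0.16), Rpsa (-0.23), Rpl4 (-0.27) and Rpl7 (-0.30) turned negative, and the count was 0 higher and 75 lower, for OL minus OPC 21 and 40. The same scaling gave 2 lower in MG, 57 higher in MU, 7 higher in N, 1 higher and 82 lower in OL, 11 higher in OPC and 41 higher and 9 lower in OPC-OL. All genes shifted on that scale too, with medians of -0.49 in OL, 0.43 in OPC, 0.15 in OPC-OL and -0.49 for OL minus OPC-OL. DESeq2, with or without edgeR's test, gave 2 lower in MG, 19 or 20 higher in N, 4 or 3 higher and 71 or 70 lower in OL, 7 higher for OL minus OPC-OL and 12 lower for OL minus OPC. With no filter on low counts 2 were lower in MG, 8 lower in MU and 1 (Rpl38) called between the sexes in EN. Scaling without the members gave 8 higher in OL, 3 higher in OPC and 38 lower in OPC-OL. All deposited cells gave 1 lower in MU, 9 higher in OL, 3 higher in OPC and 38 lower in OPC-OL, doublets kept 9 higher in OL and 3 higher in OPC, and cells led by own markers 3 higher in OPC. At a log2 difference of 1, departures from the members' total numbered 2 in AS, 4 in EN, 9 in MG, 1 in MU, 4 in N, 1 in OL, 5 in OPC and 2 in OPC-OL, since the rule is stricter. Shares in cells of 1000 to 2000 UMIs were 0.722% (AS), 1.809% (MU), 1.11% (OL), 1.054% (OPC) and 2.384% (OPC-OL), and as means of single cells 1.964% (MU). Other causes were not tested.

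Leaving out 1 library gave 0 to 2 lower in MG, 0 to 3 lower in MU, 8 to 16 higher in OL (8 without male 2, male 3, female 1 or female 4), 3 to 5 higher in OPC (3 without those 4 or female 3) and 12 to 25 higher and 21 to 37 lower in OPC-OL (12 or 13 higher without male 2, male 3, female 1 or female 4, and 37 lower without female 1). From OPC to OPC-OL 66 to 69 rose and 3 to 4 fell. Between the sexes 0 to 1 were called in AS (Rpl13a without female 1) and in EN (Rpl22 without male 5), and 0 in the other 6 classes. The replicate numbers are not stated to pair the sexes. Same-numbered libraries had an r of -0.19 to 0.16 and none matched its own number best, which cannot show whether they were prepared together. With the number as a replicate block 0 members were called in each of the 8 classes, with 20 unadjusted in AS, 17 in EN, 18 in N and 11 in MG. The share of all genes at the unadjusted threshold was not computed for this fit. Of the single members, 9 reversed and 18 values lost their call, 17 of them for Rpl24, Rpl7, Rpsa and Rps10-ps1 and 1 for Rps15, all in OL minus OPC-OL.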
